A study of Mus musculus with 10 samples.

Results

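This comparison set mouse brains labelled as lacking COP1, cJun and ETV1 (TKO) against brains labelled as lacking COP1 and cJun only (DKO), across all genes. It used 4 of 10 libraries, 2 per genotype, all polyadenylated RNA from E18.5 (late embryonic) brains with the olfactory bulbs taken off. The other 6 libraries were 2 heterozygous for COP1 (control), 2 lacking COP1 (KO) and 2 lacking COP1, cJun, ETV1 and ETV5 (QKO). Every genotype, the controls included, therefore carried at least 1 mutant allele of the COP1 gene, and DKO and TKO shared the loss of COP1 and cJun. The labels name no Cre driver, cell type of deletion, strain or litter. Libraries are numbered in accession order, which pairs nothing. Of 28059 Entrez identifiers, 18671 had enough counts to be tested.

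COP1 is the substrate-binding part of a ubiquitin ligase that marks transcription factors for destruction, and cJun and the PEA3 group of ETS factors (ETV1, ETV4 and ETV5) are among its known substrates. ETV1 binds DNA through an ETS domain that recognises a GGAA core, and PEA3 genes are switched on by FGF and ERK signalling. In the developing brain Etv1 is a marker of layer 5 projection neurons, and ETS factors of this group are known for roles in glial and neuronal differentiation.

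The DKO libraries held 46656815 and 31996944 counts and the TKO libraries 41113475 and 33403801. Neural transcripts were high in all 10 libraries: Gad1, which makes GABA, was between 52.0 and 59.9 nRPKM and Fabp7, a radial glial lipid carrier, between 497 and 655. The nRPKM is an RPKM, a level per length of gene model, adjusted by the authors for each library. Xist, which coats the inactive X chromosome, was at 1464 CPM (counts relative to the whole library) in DKO 1 and 1840 CPM in control 1, and between 0.925 and 1.94 CPM in the other 8 libraries. The Y-linked Uty had 0 counts in those 2 libraries and between 22.95 and 27.1 CPM in the other 8. DKO thus held 1 library with each sex pattern, and both TKO libraries had the male pattern. Of 12 pituitary genes, 7 were tested, and their summed level was 206 CPM in DKO 1, 59.9 CPM in QKO 1 and between 6.03 and 8.23 CPM in the other 8 libraries.

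The targeted genes were examined first. Etv1 transcript was higher in the libraries labelled TKO than in DKO, opposite to the direction in which a loss of transcript would lie. Its level was 1.98 and 2.11 nRPKM in DKO and 3.80 and 3.67 in TKO. The groups did not overlap, and TKO lay wholly above DKO for 21.8% of all genes. Both TKO values also lay above the KO values of 1.76 and 2.29. They lay below the control values of 4.82 and 4.95 and the QKO values of 4.71 and 4.38. The TKO mean of 3.74 ± 0.0893 (SD, n = 2) was 1.84-fold the DKO mean of 2.04 ± 0.0896, a log2 fold change of 0.88 ± 0.12 (SE, edgeR quasi-likelihood test, Benjamini-Hochberg adjusted p = 0.0159). Counts over a whole gene cannot show whether an exon is missing, so they do not check the ETV1 label, and the directions given here for the libraries labelled TKO rest on that label. The adjusted p was 0.292 without TKO 1, 0.184 without TKO 2, 0.0524 without DKO 1, 0.0394 without DKO 2 and 0.0715 without both libraries with high Xist, with Etv1 log2 fold changes from 0.83 to 0.92 in these 5 fits.

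The other PEA3 genes and both shared targets did not pass the test between TKO and DKO. Etv4 was at 1.59 and 1.81 nRPKM in DKO and 2.09 and 2.29 in TKO (0.37 ± 0.13, adjusted p = 0.346). Etv5 was at 3.25 and 3.08 in DKO and 3.75 and 3.93 in TKO (0.28 ± 0.08, adjusted p = 0.291). For both genes each TKO value exceeded each DKO value, as for 21.8% of all genes. Jun, the gene of cJun, was at 2.94 and 1.61 nRPKM in DKO and 1.60 and 1.48 in TKO. It had means of 2.27 ± 0.94 nRPKM in DKO and 1.54 ± 0.0818 in TKO (-0.58 ± 0.23, adjusted p = 0.378), and Cop1 3.76 ± 0.276 and 4.29 ± 0.0817 (0.19 ± 0.09, adjusted p = 0.432).

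Over all genes, DKO differed from control in 79 (0.423%) and TKO in 28 (0.15%). Set beside the controls, the estimates for PEA3 transcripts were negative in both genotypes and closer to 0 in TKO. Against control, Etv1 was at -1.26 ± 0.11 in DKO (edgeR adjusted p = 0.000919) and at -0.38 ± 0.11 in TKO (adjusted p = 0.306). Etv4 was at -1.72 ± 0.12 in DKO and -1.35 ± 0.12 in TKO, and Etv5 at -1.14 ± 0.08 and -0.85 ± 0.08, all as log2 fold changes. These comparisons use the same control libraries, and each also shares its knockout libraries with TKO vs DKO, so their values are set side by side only.

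**Figure D1:**
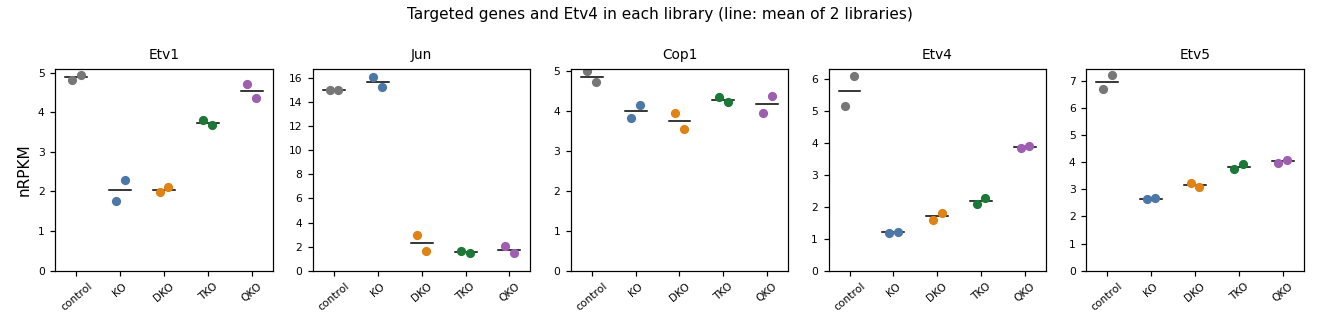
Each panel plots the level of Cop1, Jun, Etv1, Etv4 or Etv5 in nRPKM for the 10 libraries by genotype, with a line at the mean of 2 libraries. The Etv1 panel shows both TKO libraries, at 3.80 and 3.67, above both DKO libraries, at 1.98 and 2.11.

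Across the transcriptome few genes separated TKO from DKO. At an adjusted p under 0.05, 17 of 18671 genes differed (0.0911%), 4 higher in the libraries labelled TKO (0.0214%) and 13 lower (0.0696%). Among those, Hbb-b1 and Hbb-b2, have identical counts throughout and are 1 measurement. The 4 higher genes were Etv1, Rtraf, H2-T24 and 2610507I01Rik. The lower ones were globin genes, Rps7, Acp1, Ubb-ps, Rtraf-ps, Tmem267, H2-Q10, AI506816 and 2 identifiers without a name. The counts of those 2 identifiers moved with globin counts. At an unadjusted p under 0.05 there were 2228 genes (11.9%), 1307 higher (7%) and 921 lower (4.93%), and the median log2 fold change over all genes was 0.00. The libraries of TKO all lay above those of DKO for 21.8% of genes and all below for 20.2%.

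The count of calls varied with the tool and with which library was left out. DESeq2 called 31 genes higher and 52 lower. The fit without TKO 1 called 2 genes, of which 1 was among the 17. Without TKO 2 there were 9 calls (5 of the 17), without DKO 1 there were 43 (15 of the 17) and without DKO 2 there were 23 (13 of the 17).

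**Figure D2:**
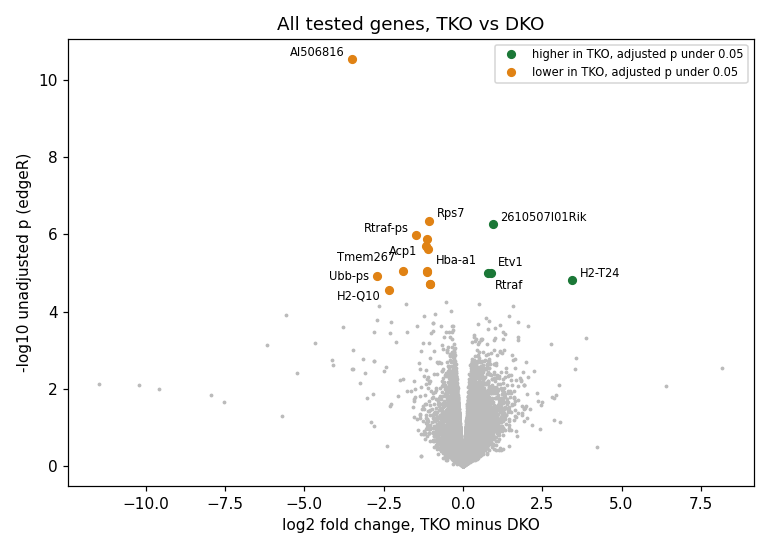
Every tested gene is plotted by its log2 fold change (TKO minus DKO, x axis) and the negative log10 of its unadjusted edgeR p (y axis), with the 17 genes at an adjusted p under 0.05 in colour. AI506816, at -3.48, has the smallest p of all genes, and 13 of the 17 coloured genes lie on the lower side.

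The upstream sequences of 4 of the lower genes are shown because they belong to the groups that the comparison turned on: Rps7 and Acp1, on the chromosome of Etv1, and an alpha and a beta globin. Each is the 250 bases before the annotated start, read 5′ to 3′ on the gene's strand, from RefSeq for GRCm38.p6, which is not the build the counts were made on (NCBIM37). The windows are chr12:28635954-28636203 (minus strand) for Rps7, chr12:30911613-30911862 (minus strand) for Acp1, chr11:32283422-32283671 (plus strand) for Hba-a1 and chr7:103827929-103828178 (minus strand) for Hbb-bs. Capitals in Rps7 mark the ETS core CCGGAA, there on the opposite strand as TTCCGG. Capitals in the others mark the CCAAT box, read on either strand, and in Hbb-bs also a CACCC box of the letters CCACACCC, while its GATA match is left in lower case.
Rps7: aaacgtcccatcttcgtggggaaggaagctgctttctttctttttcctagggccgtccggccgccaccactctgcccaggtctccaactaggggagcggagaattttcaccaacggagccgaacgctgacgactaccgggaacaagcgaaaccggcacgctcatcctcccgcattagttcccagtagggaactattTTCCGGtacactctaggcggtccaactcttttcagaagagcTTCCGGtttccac
Acp1: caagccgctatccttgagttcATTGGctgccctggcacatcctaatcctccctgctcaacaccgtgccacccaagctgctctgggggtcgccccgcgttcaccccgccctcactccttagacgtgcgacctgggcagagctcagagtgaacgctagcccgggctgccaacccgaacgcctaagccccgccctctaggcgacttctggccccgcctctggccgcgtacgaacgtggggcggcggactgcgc
Hba-a1: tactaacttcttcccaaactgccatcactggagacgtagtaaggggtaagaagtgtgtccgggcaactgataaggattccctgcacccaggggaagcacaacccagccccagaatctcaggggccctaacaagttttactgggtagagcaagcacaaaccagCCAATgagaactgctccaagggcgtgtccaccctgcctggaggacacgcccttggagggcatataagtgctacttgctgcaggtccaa
Hbb-bs: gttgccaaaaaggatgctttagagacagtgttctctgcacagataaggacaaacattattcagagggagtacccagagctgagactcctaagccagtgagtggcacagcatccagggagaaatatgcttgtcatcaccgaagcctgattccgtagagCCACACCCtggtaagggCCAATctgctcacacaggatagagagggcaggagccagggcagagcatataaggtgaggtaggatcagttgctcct

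Motifs were searched on both strands in such windows of 13097 tested genes. The ETS core, as the letters CCGGAA, was found for 21.7% of them. The GATA letters AGATAA were found for 7.51%, the CACCC box for 4.06% and CCAAT for 39.6%. Of the 17 genes that differed, 10 had a window. Rps7 was the 1 gene among them with CCGGAA, at bases -54 and -13 from the start. The shorter GGAA was not searched for and also occurs elsewhere, as in the Hba-a1 window printed above. Hbb-bs held the 1 GATA match, at -210, and the 1 CACCC box, at -93. CCAAT was found in 4 of the 10, at -229 in Acp1, -88 in Hba-a1, -76 in Hbb-bs and -87 and -46 in Rtraf. None of these matches overlapped another, and a match describes letters only.

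Globin transcripts were lower in the libraries labelled TKO than in DKO, where they were above control. Hba-a1, an adult alpha globin gene, was at 146 and 185 nRPKM in DKO and 75.8 and 78.2 in TKO, beside 63.1 and 73.3 in control, 68.4 and 61.0 in KO and 76.5 and 94.8 in QKO. The DKO libraries were the 2 highest of the 10. The fold change from DKO to TKO was 2.14-fold lower (-1.10 ± 0.13, adjusted p = 0.00633), whereas DKO exceeded control by 1.28 ± 0.13 (adjusted p = 0.000982) and TKO by 0.18 ± 0.13 (adjusted p = 0.646).

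The beta globins were lower to a like degree. Hbb-bs was at 348 and 459 nRPKM in DKO and 184 and 182 in TKO, 2.20-fold lower (-1.14 ± 0.15, adjusted p = 0.0159). Hbb-b1, which stands for Hbb-b2 too, was at 217 and 238 in DKO and 107 and 114 in TKO (-1.04 ± 0.15, adjusted p = 0.023). Both DKO values exceeded all other libraries for both genes. Globin genes have near-identical copies among which reads may be split, so single values are uncertain.

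Further red cell genes were not called. Hba-a2, another alpha globin gene, was at 251 and 315 nRPKM in DKO and 140 and 141 in TKO (-1.01 ± 0.20, adjusted p = 0.125). Alas2, the first enzyme of haem synthesis in red cells, was at 15.4 and 16.9 in DKO and 8.65 and 8.92 in TKO (-0.87 ± 0.15, adjusted p = 0.088). In both genes the DKO libraries lay above all others. Of 19 genes on an erythroid list 12 were tested, and 4 were lower, against 0.0696% of all genes. DESeq2 called 5 lower, where it called 52 of all 18671 genes lower. Both counts on the list take the Hbb-b1 and Hbb-b2 record as 2. The median log2 fold change of the list was -0.89 against 0.00 over all genes. The summed level of the 12 genes was 949 and 1140 CPM in DKO, 514 and 527 in TKO and between 374 and 685 in the other 6 libraries.

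In whole tissue, fewer cells of a type and less RNA per cell cannot be told apart. Of the 12 tested genes on the erythroid list, 10 had negative and 2 positive log2 fold changes, and 7 were lower and 1 higher at an unadjusted p under 0.05. Over all 18671 genes tested, 9227 were negative, and 4.93% were lower and 7% higher at that threshold. The 2 positive genes of the list were Slc25a37 and Klf1, singled out after their values were seen. Slc25a37, a mitochondrial iron carrier, was at 1.45 and 1.53 nRPKM in DKO and 2.09 and 2.07 in TKO (0.49 ± 0.19, adjusted p = 0.366), and Klf1, a red cell transcription factor, was at 0.128 and 0.0939 against 0.205 and 0.174 (0.74 ± 0.45, adjusted p = 0.527). Among the genes of other blood and vessel cells, 0 of 15 endothelial and pericyte genes and 0 of 16 microglia and leukocyte genes were called by edgeR or DESeq2, with 1 higher and 1 lower, and 2 higher and 1 lower, at an unadjusted p under 0.05. Without TKO 1 the adjusted p was 0.232 for Hba-a1 and 0.315 for Hbb-bs, and without TKO 2 it was 0.163 and 0.294. Hbb-b1 was lost in those fits, at 0.442 and 0.294, and also without DKO 2, at 0.0706.

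Rps7 and Acp1, both on chromosome 12 with Etv1, showed the same arrangement of libraries. Rps7, a protein of the small ribosomal subunit, was at 27.4 and 27.1 nRPKM in DKO and 11.8 and 14.1 in TKO, beside 10.7 and 9.52 in control, 11.4 and 11.0 in KO and 12.03 and 13.3 in QKO. Acp1, a low-molecular-weight tyrosine phosphatase, was at 2.55 and 2.50 in DKO, 1.02 and 1.25 in TKO and between 1.06 and 1.14 in the other 6 libraries. DKO stood alone and high in both genes, and the other 8 libraries lay close together. Rps7 was 2.11-fold lower in the libraries labelled TKO than in DKO (-1.07 ± 0.10, adjusted p = 0.0033) and Acp1 2.23-fold (-1.16 ± 0.13, adjusted p = 0.00617). Without TKO 1 the adjusted p was 0.0508 for Rps7 and 0.136 for Acp1. Ribosomal protein genes have processed copies, so the separate value of Rps7 is uncertain. Of 31 genes of the small ribosomal subunit, Rps7 was the 1 called by edgeR, which called 0.0696% of all genes lower. DESeq2 called 1 of the 31 higher and 1 lower, and 31 higher and 52 lower of all 18671 genes. At an unadjusted p under 0.05, 3 of the list were higher and 2 lower, against 7% and 4.93% of all genes. The median of the list was -0.02.

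Ubb-ps, a transcribed ubiquitin pseudogene, was at 10.6 and 13.2 nRPKM in DKO and 1.56 and 2.05 in TKO, beside 10.9 and 25.8 in QKO and between 1.69 and 2.17 in control and KO. High values were thus found in DKO and QKO and low ones in the other genotypes. It was 6.56-fold lower in the libraries labelled TKO than in DKO (-2.71 ± 0.36, adjusted p = 0.017), with an adjusted p of 0.442 without TKO 1 and 0.294 without TKO 2. As a copy of Ubb it may share reads with that gene. The identifiers ID100862145 (-1.13 ± 0.12, adjusted p = 0.00491) and ID100503686 (-1.14 ± 0.15, adjusted p = 0.0159) were also lower, at 269 and 320.1 against 136 and 132 nRPKM and at 449 and 587 against 236 and 231. ID100503686 had 14497 and 12901 counts in DKO and 6656 and 5479 in TKO, close to Hbb-bs (15082 and 13516, 6938 and 5769). ID100862145 (2842 and 2300, 1250 and 1024) moved with Hba-a1 (4176 and 3595, 1888 and 1638). Whether these 2 identifiers share reads with globin genes was not tested, so they may not be separate from the globin calls. Neither passed without TKO 1 (0.136 for ID100862145 and 0.315 for ID100503686) or without TKO 2 (0.149 and 0.294).

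2610507I01Rik, a long noncoding RNA of chromosome 11, was lower in DKO and QKO than in the other genotypes. It was at 3.40 and 3.44 nRPKM in DKO and 6.67 and 6.43 in TKO, close to 6.59 and 6.20 in control and 5.86 and 6.72 in KO, while QKO was at 0.617 and 0.663. DKO lay between QKO and the other genotypes, with no overlap. It was 1.92-fold higher in the libraries labelled TKO than in DKO (0.94 ± 0.09, adjusted p = 0.0033), with an adjusted p of 0.0508 without TKO 1.

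In another arrangement TKO, and not DKO, departed from control. AI506816, a long noncoding RNA of chromosome 5, was at 4.53 and 4.44 nRPKM in DKO and 0.367 and 0.436 in TKO, a level 11.2-fold lower in the libraries labelled TKO (-3.48 ± 0.14, adjusted p = 5.25e-07). KO was as low, at 0.329 and 0.320, whereas control (4.59 and 4.37) and QKO (5.01 and 4.34) were as high as DKO. Its counts were 637 and 425 in DKO and 45 in each TKO library. It passed whichever of the 4 TKO and DKO libraries was left out.

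Rtraf, part of the tRNA ligase complex, and its pseudogene Rtraf-ps, on chromosomes 14 and 3, moved in opposite directions. Rtraf was at 14.96 and 17.04 nRPKM in DKO and 24.9 and 29.8 in TKO (0.78 ± 0.10, adjusted p = 0.0159). Rtraf-ps was at 19.8 and 20.1 in DKO and 5.81 and 8.57 in TKO, 2.78-fold lower (-1.47 ± 0.15, adjusted p = 0.0047). In QKO, at 21.1 and 22.9 for Rtraf and 12.3 and 14.4 for Rtraf-ps, both lay between TKO and the other genotypes.

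The sum of the pair changed little beside its division. Rtraf and Rtraf-ps together held 44.9 and 48.5 CPM in DKO and 47.0 and 57.9 in TKO, and between 41.3 and 52.2 in the other 6 libraries. Rtraf's share of that sum was 54.9 and 57.7% in DKO, 87.3 and 84.9% in TKO, 73.4 and 71.9% in QKO and between 55.1 and 57.0% in control and KO. Since a gene and its copy can share reads, the separate values are uncertain. Rtraf passed only without DKO 2 among the 4 fits that leave out a library (adjusted p from 0.0508 to 0.294 in the others), and Rtraf-ps was at 0.0503 without TKO 1.

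Tmem267, which encodes a transmembrane protein, varied across genotypes. It was at 16.4 and 21.2 nRPKM in DKO, 5.66 and 4.32 in TKO, 13.6 and 7.83 in control, 6.80 and 9.30 in KO and 20.2 and 19.8 in QKO. TKO held the 2 lowest values of the 10. It was 3.73-fold lower in the libraries labelled TKO than in DKO (-1.90 ± 0.25, adjusted p = 0.0159), and neither DKO (0.81 ± 0.23, adjusted p = 0.275) nor TKO (-1.09 ± 0.25, adjusted p = 0.208) passed against control. The adjusted p was 0.232 without TKO 1 and 0.294 without TKO 2.

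**Figure D3:**
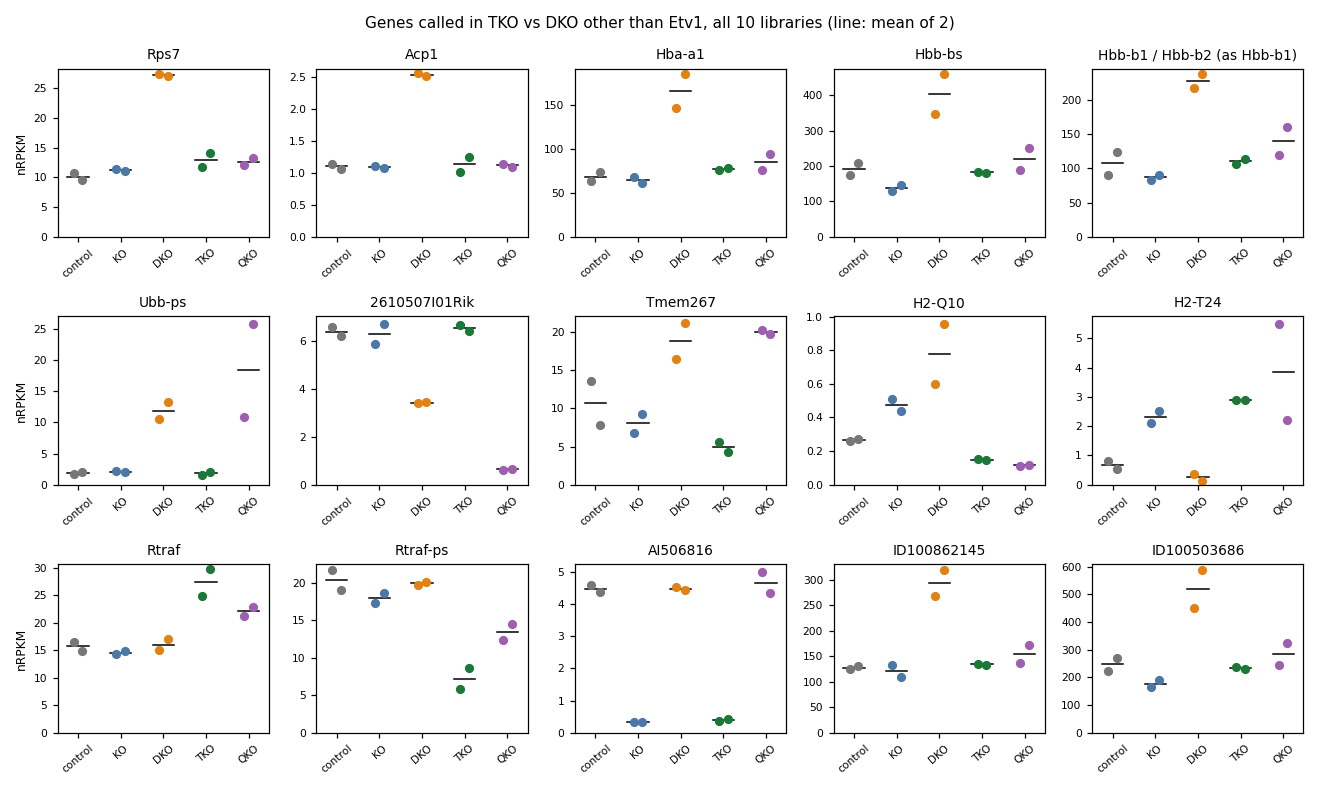
Each panel plots 1 of the genes with an adjusted p under 0.05 other than Etv1, in nRPKM for the 10 libraries by genotype, with a line at the mean of 2. DKO stands alone and high for Rps7, Acp1 and the globins, while TKO stands with KO, between 0.320 and 0.436, for AI506816.

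Both class I histocompatibility genes that differed lie on chromosome 17. These genes encode molecules that display peptides at the cell surface, or relatives of them. H2-T24 was at 0.368 and 0.132 nRPKM in DKO and 2.89 and 2.90 in TKO, from 41 and 10 counts against 281 and 237. It was 10.8-fold higher in the libraries labelled TKO (3.43 ± 0.47, adjusted p = 0.0198), and TKO stood with KO (2.11 and 2.51) and QKO (5.48 and 2.21) above control (0.819 and 0.552). H2-Q10 went the other way, at 0.599 and 0.958 in DKO and 0.152 and 0.145 in TKO, 5.06-fold lower (-2.34 ± 0.34, adjusted p = 0.0303), from 45 and 49 counts against 10 and 8. Both were lost without TKO 1 (0.266 for H2-T24 and 0.442 for H2-Q10), without TKO 2 (0.214 and 0.347) and without DKO 2 (0.0706 and 0.102).

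Other genes of chromosome 17 had large differences without passing. H2-D1, a classical class I gene, was at 22.3 and 33.7 nRPKM in DKO and 11.5 and 12.1 in TKO (-1.24 ± 0.22, adjusted p = 0.0899). H2-K1, the other classical gene, was at 7.69 and 14.8 in DKO and 3.01 and 3.54 in TKO (-1.77 ± 0.35, adjusted p = 0.124). In both, DKO 2 was the highest of the 10 libraries. H2-T23, a nonclassical gene, was at 0.759 and 0.459 in DKO and 1.26 and 1.74 in TKO (1.26 ± 0.26, adjusted p = 0.146).

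The pseudogene H2-Q3 had 25 and 34 counts in DKO and 1 and 0 in TKO. Hspa1b, an inducible HSP70 chaperone, was at 2.23 and 4.09 nRPKM in DKO and 0.431 and 0.580 in TKO (-2.63 ± 0.43, adjusted p = 0.0624). Rps18, a small ribosomal protein gene, was at 7.25 and 3.41 in DKO and 16.6 and 20.1 in TKO (1.74 ± 0.32, adjusted p = 0.109). Controls differed from each other in several of these genes, with H2-D1 at 13.2 and 21.7, Hspa1b at 0.628 and 1.82 and Rps18 at 16.7 and 8.95. Class I genes are close relatives and reads may be split among them, so their separate values are uncertain.

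Among 100 tested genes around H2-D1, 50 on each side, 14 were higher and 21 lower at an unadjusted p under 0.05, against 7% and 4.93% of all genes. A log2 fold change beyond 1 in either direction was found in 18% of them and in 2.12% of all genes tested. H2-K1 and Rps18 lay outside this window. The window was chosen after the values of H2-D1 and its neighbours were seen, so it describes where differences lay and carries no test. On the list of MHC class I and antigen processing genes 1 of 18 was higher and 1 lower (3 lower by DESeq2), with a median of -0.16. Of all 18671 genes, edgeR called 0.0214% higher and 0.0696% lower, and DESeq2 called 31 genes higher and 52 lower.

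The neighbourhood of the targeted gene was described in the same way. Among 100 tested genes around Etv1 on chromosome 12, 50 on each side, 2 were lower and 0 higher, against 0.0696% and 0.0214% of all genes. These were Rps7, 49 tested genes away and near the edge of the window, and Acp1, 38 away. At an unadjusted p under 0.05, 5 of the 100 genes were higher and 13 lower, against 7% and 4.93% of all genes. Their median was -0.02. A log2 fold change beyond 1 was found for 5 of the 100, against 2.12% of all genes. Without TKO 1 neither gene passed. The next smallest p-values in the window belonged to Trappc12 and Adi1, on the same side of Etv1. Adi1, of the methionine salvage pathway, was at 8.02 and 6.27 nRPKM in DKO and 10.5 and 9.99 in TKO (0.52 ± 0.11, adjusted p = 0.158), and Trappc12, of a vesicle tethering complex, was at 10.6 and 10.7 against 8.72 and 8.55 (-0.30 ± 0.06, adjusted p = 0.124). Around Jun 0 of 100 genes were called, with 7 higher and 7 lower at an unadjusted p under 0.05, and around Cop1 0 of 100, with 3 higher and 5 lower. Of all genes, 0.0911% were called.

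**Figure D4:**
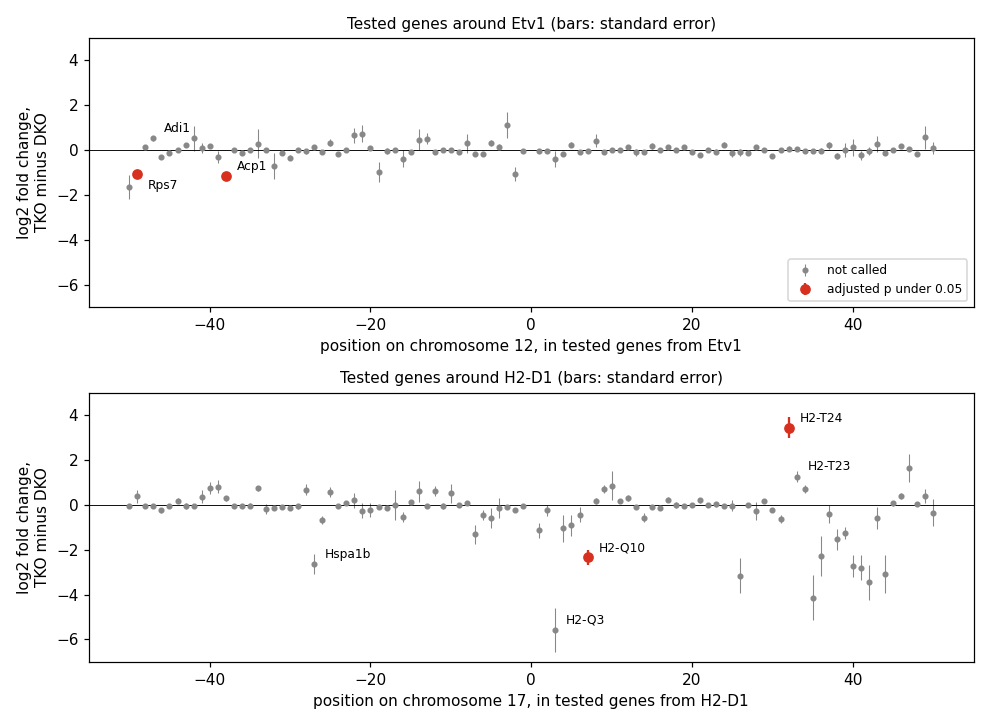
Log2 fold changes from DKO to TKO with standard errors (y axis) are plotted for the 100 tested genes nearest in order to Etv1 on chromosome 12 (upper panel) and to H2-D1 on chromosome 17 (lower panel), with red points at an adjusted p under 0.05. Around Etv1 most points stay near 0, with Rps7 (-1.07), Acp1 (-1.16), Adi1 (0.52) and some imprecise ones further out, and 5 genes lie beyond 1. Around H2-D1 the points spread in both directions, with 18 genes beyond 1.

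Genes known to respond to PEA3 factors and ERK did not pass the test. Of 14 ERK feedback and ETS target genes edgeR called 0, where it called 0.0911% of all genes. DESeq2 called 1 of the 14 lower, where it called 52 of all 18671 genes lower. At an unadjusted p under 0.05, 2 were higher and 3 lower, against 7% and 4.93% of all genes. Dusp4, a phosphatase of ERK, was at 39.9 and 39.5 nRPKM in DKO and 31.9 and 26.9 in TKO (-0.43 ± 0.11, adjusted p = 0.252). Dusp6, which also acts on ERK, was at 14.7 and 13.5 in DKO, 11.8 and 11.4 in TKO and 10.7 and 10.4 in control (-0.28 ± 0.08, adjusted p = 0.264). In both genes the TKO values lay below the DKO values, as for 20.2% of all genes. Spred3, an inhibitor of the pathway, was at 7.22 and 6.94 in DKO and 9.002 and 8.33 in TKO (0.30 ± 0.07, adjusted p = 0.239).

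The ligase's own genes and the AP-1 genes were not called either. Of 9 COP1 ligase and Tribbles genes edgeR and DESeq2 called 0. At an unadjusted p under 0.05, 0 were higher and 1 lower, against 7% and 4.93% of all genes. That gene was Trib1, a pseudokinase that brings substrates to COP1, at 6.61 and 6.78 nRPKM in DKO and 5.92 and 5.38 in TKO (-0.24 ± 0.08, adjusted p = 0.334). Trib1 exceeded control in both genotypes, by 0.83 ± 0.08 in DKO (adjusted p = 0.000982) and 0.59 ± 0.08 in TKO (adjusted p = 0.0124). Of 10 AP-1 genes and 14 other ETS genes both tools called 0 as well, with 0 higher and 1 lower, and 0 and 0, at an unadjusted p under 0.05.

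Glial lists held 0 called genes, where 0.0911% of all genes were called. Of 16 genes of oligodendrocyte precursors edgeR and DESeq2 called 0, with 0 higher and 3 lower at an unadjusted p under 0.05 (7% and 4.93% of all genes) and a median of -0.07. Olig2, which specifies that lineage, was at 22.9 and 19.7 nRPKM in DKO and 18.4 and 19.5 in TKO (-0.16 ± 0.09, adjusted p = 0.484), and Matn4, a matrix protein, at 1.51 and 1.42 against 0.882 and 1.07 (-0.59 ± 0.18, adjusted p = 0.306). Both tools called 0 of 17 astrocyte genes (1 higher and 1 lower at an unadjusted p under 0.05) and 0 of 17 radial glial genes (3 and 2). Hes1, a Notch target of radial glia, was at 7.32 and 6.33 in DKO and 5.20 and 5.39 in TKO (-0.37 ± 0.11, adjusted p = 0.293).

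Neuronal lists included that of layer 5, where Etv1 is expressed. Of 13 layer 5 projection neuron genes edgeR and DESeq2 called 0, with 0 at an unadjusted p under 0.05 in either direction, 4 positive and 9 negative values and a median of -0.09. Over all genes, 7% were higher and 4.93% lower at an unadjusted p under 0.05. Of 16 interneuron genes both tools called 0, with 0 higher and 4 lower at that threshold. Among those was Calb2, the calcium binder calretinin, at 48.1 and 50.8 nRPKM in DKO and 40.5 and 42.6 in TKO (-0.25 ± 0.07, adjusted p = 0.264). For 22 proliferation genes edgeR called 0 and DESeq2 1 lower, where DESeq2 called 52 of all 18671 genes lower. At an unadjusted p under 0.05, 4 of the 22 were higher and 1 lower. Mki67, a marker of cycling cells, was at 7.46 and 7.81 in DKO and 10.9 and 8.66 in TKO (0.36 ± 0.10, adjusted p = 0.275).

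A few lists lay far from 0 with 0 genes called. All 11 tested HOX genes, which mark hindbrain and spinal cord, had positive values, as had 9444 of all 18671 genes, with a median of 1.66. At an unadjusted p under 0.05, 7 were higher, against 7% of all genes, and neither tool called any. Hoxb2 was at 0.240 and 0.389 nRPKM in DKO, 0.702 and 0.786 in TKO and 1.02 and 1.15 in control (1.28 ± 0.43, adjusted p = 0.337). The summed HOX level was 4.70 and 9.74 CPM in DKO and 21.2 and 15.9 in TKO, against 34.3 and 44.6 in control, 4.54 and 1.93 in KO and 34.7 and 5.64 in QKO. Of the 2 QKO libraries, 1 lay at the control level and 1 within the DKO range. The median was 0.93 without DKO 1 and 2.32 without DKO 2. Whether the amount of hindbrain tissue in each sample differed was not tested.

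Interferon response genes were positive in 18 of 19 cases, with a median of 0.58. Neither edgeR nor DESeq2 called any, and 13 were higher and 1 lower at an unadjusted p under 0.05, against 7% and 4.93% of all genes. Irf7, a transcription factor of the pathway, was at 0.495 and 0.403 nRPKM in DKO and 1.07 and 1.09 in TKO (1.25 ± 0.25, adjusted p = 0.124). Isg15, a ubiquitin-like protein, was at 1.43 and 1.18 in DKO and 2.46 and 2.90 in TKO (1.02 ± 0.21, adjusted p = 0.146). Usp18, the protease that removes it, was at 0.310 and 0.244 against 0.608 and 0.724 (1.24 ± 0.29, adjusted p = 0.207). Both TKO libraries lay above both DKO libraries in these genes, which were named for their small p, and in 14 of the 19, against 21.8% of all genes. The summed level of the list was 111 and 105 CPM in DKO and 120 and 131 in TKO, and between 100.4 and 115 in the other 6 libraries.

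All 13 hypoxia genes were negative, as were 9227 of all 18671 genes, with a median of -0.26 and 0 called by either tool. At an unadjusted p under 0.05, 7 were lower, against 4.93% of all genes. Ldha, which makes lactate, was at 120.2 and 154 nRPKM in DKO and 101 and 109 in TKO (-0.37 ± 0.11, adjusted p = 0.288), and Ndrg1, a gene induced by low oxygen, at 33.1 and 32.6 against 27.1 and 28.3 (-0.24 ± 0.05, adjusted p = 0.191). The summed level was 641 and 817 CPM in DKO and 578 and 611 in TKO, with control at 681 and 591. DKO 2 was the highest of the 10 libraries, and without it the median was -0.14, with 3 positive and 10 negative values. Without DKO 1 it was -0.42, and 1 gene was called lower.

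The pituitary list had the most negative median, -2.90, and that value came from 1 library. Gh, growth hormone, was at 187 nRPKM in DKO 1, 0 in DKO 2 and 0.0277 and 0.033 in TKO, and at 55.6 in QKO 1. Pomc, a hormone precursor, was at 26.4 and 1.20 in DKO and 0.624 and 1.06 in TKO. Without DKO 1 the median was -0.04, with 3 positive and 4 negative values. edgeR and DESeq2 called 0 of the 7 genes. At an unadjusted p under 0.05, 0 were higher and 4 lower, against 7% and 4.93% of all genes.

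In the other 14 lists edgeR called 0 genes, and medians ran from -0.12 for immediate early genes to 0.15 for the choroid plexus. These covered FGF signalling, myelination, intermediate progenitors, cortical layers, striatum, monoaminergic neurons, cerebellum, meninges, ependyma, cholesterol synthesis, cell stress and sex-linked genes as well. DESeq2 called 1 gene lower in each of the cholesterol, stress and sex-linked lists and 0 in the rest, where it called 52 of all 18671 genes lower. At an unadjusted p under 0.05, no more than 4 genes of any of these lists were higher or lower. Over all genes the shares were 7% higher and 4.93% lower. Some of these lists had uneven signs and are singled out for that. Of 14 immediate early genes 13 were negative, of 16 cholesterol genes 13 were negative, and of 14 meningeal genes 13 were positive. Over all 18671 genes, 9444 were positive and 9227 negative. Without DKO 2 the meningeal list held 7 positive and 7 negative values.

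**Figure D5:**
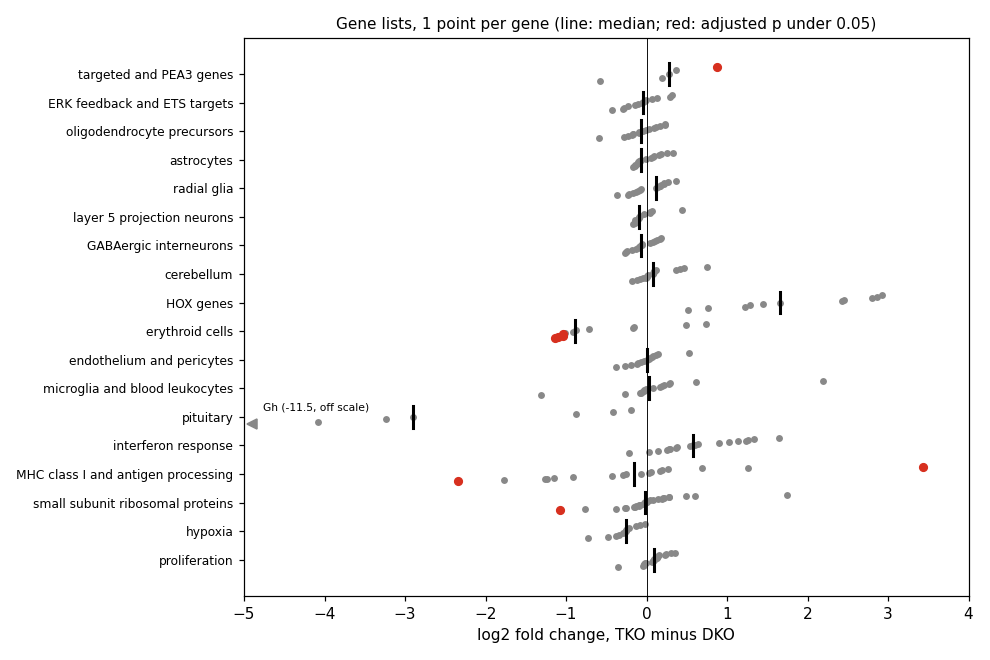
Each point is the log2 fold change of 1 gene from DKO to TKO (x axis), in rows by gene list, with a black line at the list's median and red points at an adjusted p under 0.05. Lists of glia and neurons lie around 0, the erythroid, hypoxia and pituitary lists lie below it (medians of -0.89, -0.26 and -2.90), and the HOX and interferon lists above it (1.66 and 0.58).

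Several genes lay just outside the threshold. Bcat1, which starts the breakdown of branched-chain amino acids, was at 15.7 and 17.7 nRPKM in DKO and 11.7 and 11.3 in TKO (-0.53 ± 0.09, adjusted p = 0.0584). Trub2, an RNA pseudouridine synthase, was at 8.51 and 7.86 in DKO and 11.0 and 12.2 in TKO (0.50 ± 0.08, adjusted p = 0.0613). Rec8, a meiotic cohesin subunit, was at 0.239 and 0.211 in DKO and 0.658 and 0.718 in TKO (1.60 ± 0.26, adjusted p = 0.0624). The 2 groups did not overlap in these genes, which were named for their small p. TKO lay wholly above DKO for 21.8% of all genes and wholly below for 20.2%. Rec8 was at 0.062 in both controls, from only 6 counts in each, against 60 and 55 counts in TKO. TKO exceeded control by 3.44 ± 0.32 (adjusted p = 0.000676).

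Mcm6, a subunit of the replicative helicase, was at 17.5 and 16.3 nRPKM in DKO and 13.1 in both TKO libraries (-0.36 ± 0.06, adjusted p = 0.078). TKO held its lowest values of the 10 libraries and was below control by 0.47 on the log2 scale (-0.47 ± 0.06, adjusted p = 0.0103). Nsun7, a member of an RNA methyltransferase family, was at 0.499 and 0.598 in DKO and 1.49 and 1.46 in TKO (1.44 ± 0.25, adjusted p = 0.0899). With 2 libraries per genotype and nothing in the labels that assigns them to separate litters, the p-values reflect only how far these samples vary, and that variation may be technical.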

How the data were processed

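RNA sequencing measured 10 libraries of mouse brain, 2 for each of 5 genotypes. The submitters' processing notes name GSNAP and the mouse build NCBIM37. Per the file headers, the authors deposited a count of uniquely aligning reads for every gene model. Beside it stands an RPKM that, per the file headers, the authors corrected with library size factors (nRPKM). Which annotation release was used, whether strand was read and how reads of gene copies were divided was not given in the sources used here.

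The test was the quasi-likelihood F test of edgeR 4.0.16 (R 4.3.3), with TMM scaling and 1 mean per genotype over all 10 libraries. Low genes were set aside by filterByExpr (9388 of 28059), and p-values were adjusted by Benjamini-Hochberg over the 18671 left. Calls are at an adjusted p under 0.05. The fit had 5 residual degrees of freedom. All adjusted p-values come from edgeR unless DESeq2 is named. Standard errors derive from the F statistic, and levels are nRPKM ± SD. CPM for summed lists are TMM-scaled. DESeq2 1.42.0, other scalings and filters, and fits without single libraries were alternatives. The edgeR step was checked on simulated counts.

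Symbols came from RefSeq for GRCm38.p6, which named 24998 identifiers (89.1%) holding 95.8% of the counts, and which also gave gene order and upstream sequence. The members and the 34 gene lists were chosen with earlier results of these data known, so no list carries a test of its own. Of the list symbols, 5 matched no identifier. Genes are named by rule: the targets and PEA3 genes, every gene called, the 10 with the smallest p among the others, up to 3 per list by p and up to 5 near Etv1. Gad1, Fabp7, Olig2, Hba-a2, Slc25a37, Klf1, H2-K1, H2-T23 and the window around H2-D1 fall outside that rule and were chosen after values were seen. Uty, read for the sex pattern, also falls outside that rule.

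Library totals ranged from 31996944 to 54594523, so 3 counts correspond to 0.055 to 0.0938 CPM, a bound on counting error only. The 2 libraries of a group differed beyond sampling noise (chi-square per degree of freedom 18.0 in DKO and 7.71 in TKO over genes with at least 20 counts), so none was counted as a repeat. Libraries were run 5 to a lane, per the labels, without saying which went together, so no batch could be tested.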

Additional observations from a re-analysis of the deposited data

How the results depend on the processing

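Of the 17 genes called between TKO and DKO, all passed with median-of-ratios or upper-quartile scaling, and 16 with a stricter filter. DESeq2 called 31 higher and 52 lower, no low-count filter 85 and 74, the TKO and DKO libraries alone 23 and 37, leaving out both libraries with high Xist 16 and 44, and a high-Xist covariate 12 and 35. Leaving out 1 library of TKO or DKO gave 1 to 12 higher and 1 to 31 lower, with the fewest lower calls without TKO 1. A lone library is then assumed to vary like the other groups. Genes called on the lists numbered 8, and by the same settings 17, 27, 17, 18 and 16, or 0 to 14 without 1 library. Near Etv1 the 2 calls became 0 to 3. The Etv1 log2 fold change was 0.83 (adjusted p = 0.0715) without the high-Xist libraries and 0.83 to 0.92 without single libraries. DKO vs control went from 79 calls to 141 by DESeq2, 225 without the filter, 34 without the high-Xist libraries and 27 to 69 without 1 library. TKO vs control went from 28 to 88, 145 and, without 1 library, 13 to 18.

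The uncalled genes Dda1, Gh and Tsix changed sign. Without the high-Xist libraries Dda1 was at 0.0034, Gh at 3.27 and Tsix at 0.26, and with the covariate Gh was at 2.06 and Tsix at 0.40. Without 1 library Dda1 ranged from -0.27 to 0.0034, Gh from -12.45 to 3.28 and Tsix from -8.91 to 0.26. The cause was not tested. No paired analysis was possible because replicate numbers come only from accession order.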
